A study of Mus musculus with 6 samples.

Results

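The genes described are 10 NRF2 target and antioxidant genes, Nfe2l2, Keap1, Nqo1, Srxn1, Gclc, Gclm, Txnrd1, Hmox1, Osgin1 and Cat, chosen by symbol from the 46095 genes of the expression table. All 10 were listed and all 10 were expressed highly enough to be tested. RNA-seq was done on liver material labelled as hepatocytes from C57BL/6 mice kept on a high-fat diet (HFD) for 26 weeks, with 3 libraries of ARRB1 knockout mice (HFD-ARRB1-KO, below KO) and 3 of wild-type mice (HFD-WT, below WT). The study asked how Arrb1, which encodes the receptor-regulating scaffold beta-arrestin 1, bears on steatohepatitis brought on by the diet. The genotype is given as ARRB1-/- for KO replicate 1, but as ARRB2-/- and ARRB3-/- for KO replicates 2 and 3, whose titles name ARRB1. The labels give no age beyond the time on diet and do not say whether the knockout was made in all cells or whether each library is a separate mouse. P-values therefore measure only the spread between these libraries, which may be technical.

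NRF2, the product of Nfe2l2, is a transcription factor that pairs with small MAF proteins and binds antioxidant response elements near genes that protect cells from oxidants and electrophiles. KEAP1 holds NRF2 in the cytosol and has it degraded; oxidants and electrophiles modify KEAP1, NRF2 escapes, and its targets are transcribed. In liver these targets make glutathione, recycle thioredoxin and peroxiredoxins, reduce quinones and break down haem, while catalase removes hydrogen peroxide in peroxisomes. NRF2 activity is set largely at the level of protein, which RNA levels do not measure.

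The promoters are shown because the response element is the feature that defines NRF2 targets, and the 10 genes were chosen by symbol and not by sequence. RefSeq promoters of GRCm38.p6, which run from 250 bases before to 50 bases after the start site, were matched for 8 of the 10 genes, and Gclc and Hmox1 had no entry. The Srxn1 promoter lies at chr2:152105274-152105573 on the plus strand and the Nqo1 promoter at chr8:107403156-107403455 on the minus strand. Both genes were higher in KO libraries. Capitals mark matches on either strand to TGACNNNGC or TGAGNNNGC, cores of the antioxidant response element, and to TGACTCA, the core bound by AP-1 and by NF-E2 related factors, which can overlap the second.
Srxn1: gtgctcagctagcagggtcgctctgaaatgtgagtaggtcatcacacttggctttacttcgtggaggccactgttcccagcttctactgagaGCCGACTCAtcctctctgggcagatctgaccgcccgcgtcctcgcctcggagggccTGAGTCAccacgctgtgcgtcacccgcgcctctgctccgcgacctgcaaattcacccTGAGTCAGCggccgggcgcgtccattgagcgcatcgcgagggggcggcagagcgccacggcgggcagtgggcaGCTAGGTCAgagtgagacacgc
Nqo1: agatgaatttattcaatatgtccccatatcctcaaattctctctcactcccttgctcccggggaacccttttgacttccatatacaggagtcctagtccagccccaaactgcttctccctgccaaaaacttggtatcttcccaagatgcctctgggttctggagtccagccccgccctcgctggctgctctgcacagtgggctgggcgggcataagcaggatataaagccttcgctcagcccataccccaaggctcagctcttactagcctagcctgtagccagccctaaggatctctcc
The Srxn1 promoter held TGAGTCA, the reverse complement of TGACTCA, at -102 and at -45 from the start site, and the copy at -45 is also a TGAGNNNGC match. None of the 3 motifs was in these 300 bases of Nqo1, which says nothing about bases outside the window. Shorter windows around the match are given for 4 other genes, at chr2:75704885-75704913 for Nfe2l2, chr3:122245413-122245441 for Gclm, chr10:82859104-82859132 for Txnrd1 and chr8:119437038-119437066 for Osgin1.
Nfe2l2: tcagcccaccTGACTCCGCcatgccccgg
Gclm: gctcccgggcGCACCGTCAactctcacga
Txnrd1: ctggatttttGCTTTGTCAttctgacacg
Osgin1: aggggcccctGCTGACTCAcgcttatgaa
TGACNNNGC was in a promoter of 4 of the 8 matched genes (Nfe2l2, Srxn1, Gclm and Txnrd1) and of 14.0% of 27025 genes with a promoter. TGAGNNNGC was in those of 2 (Srxn1 and Osgin1), against 19.8% of all genes, and TGACTCA in those of the same 2, against 5.95%. The Keap1 and Cat promoters held none of the 3 motifs. Txnrd1 had 3 promoters, with a match in promoter 2 only, and each other matched gene had 1. Its extra windows gave Txnrd1 more room for a match. These matches describe the letters of the window and are not binding sites shown by these data.

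Values are FPKM, fragments scaled by gene length and sequencing depth, as the authors deposited them, so levels can be compared between genes. Whole reads recovered from the FPKM steps came to 13354411, 33873322 and 28137583 in KO replicates 1 to 3 and to 31992348, 26947953 and 29107022 in WT replicates 1 to 3. KO replicate 1 was the shallowest library. The targeted gene Arrb1 was at 0.918, 1.05 and 1.16 FPKM in KO libraries and at 3.86, 22.7 and 16.9 FPKM in WT libraries, so every KO library lay below every WT library, and WT replicate 1 lay far below the other WT libraries. Differences were tested with limma on log2(FPKM + 1) over 10633 genes, those whose mean reached 1 FPKM, and a gene was called at a Benjamini-Hochberg adjusted p under 0.05 over all of them. Fold changes are KO minus WT on that scale and understate the change of low genes. With 3 against 3 libraries, an exact two-sided permutation test cannot give less than 0.1.

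Of the 10 genes, 3 were higher in KO libraries and none was lower. The 3 were Nqo1, Srxn1 and Gclc. Over all tested genes, 5.3% were called higher and 1.6% lower, so the share of the 10 called higher lay above that of all genes. The 10 genes were chosen with earlier results of these data known, so this share is not independent support. At an unadjusted p under 0.05, limma had 4 of the 10 higher and 0 lower, against 19.1% and 6.19% of all tested genes. Voom on the recovered reads called 3 higher and 0 lower, against 7.42% and 1.89% of all genes it tested. The median log2 fold change of the 10 was 0.21, against 0.07 for all tested genes. The KO libraries lay wholly above the WT libraries for 5 of the 10 (Nqo1, Srxn1, Gclc, Keap1 and Txnrd1) and wholly below for none, whereas 23.4% of all tested genes lay above and 7.81% below. After median-of-ratios scaling 346 genes were called higher and 232 lower over the transcriptome, against 564 and 170 as deposited, and 371 and 204 after quantile normalization; the same number of the 10 genes, 3, was called higher under both. With libraries left out the count of 3 was 0 without KO replicate 2, 0 without WT replicate 2 and 1 without KO replicate 3. Over all genes, higher calls numbered 94 without KO replicate 2, 117 without WT replicate 2 and 256 without KO replicate 3. The fold changes moved less than the calls: without KO replicate 2 or WT replicate 2, that of Nqo1 was 1.08 or 1.04 against 1.14 with all libraries, that of Srxn1 0.72 or 0.76 against 0.85, and that of Gclc 0.56 or 0.59 against 0.69. The count of 3 called genes was also 0 with no filter on low values, when 22476 genes were tested.

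**Figure D1:**
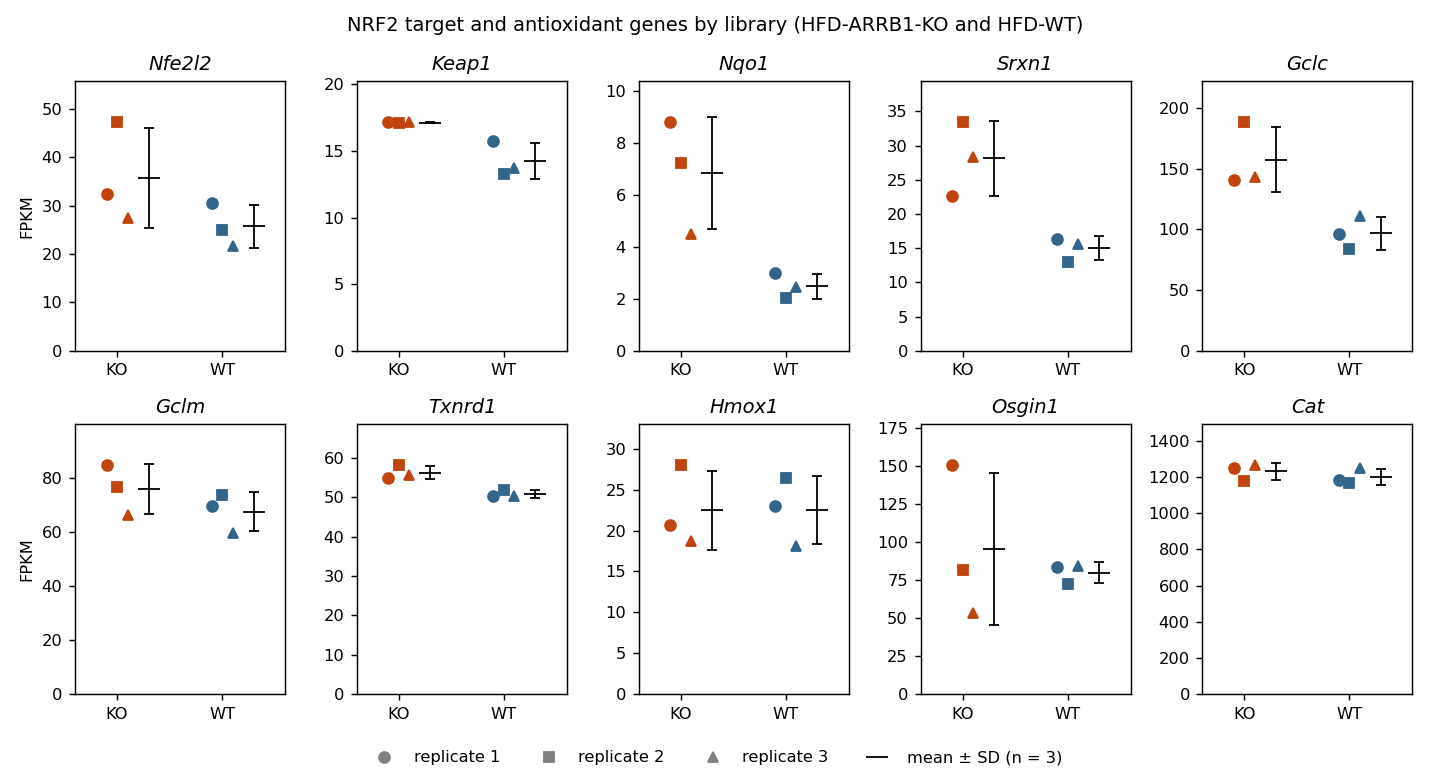
FPKM of each of the 10 genes (vertical axis, from 0) in the 3 KO and the 3 WT libraries, with a symbol per replicate and the mean ± SD (n = 3) beside each group. The KO points lie wholly above the WT points for Nqo1, Srxn1, Gclc, Keap1 and Txnrd1 and overlap them for the other 5 genes.

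Nfe2l2, which encodes NRF2 itself (chromosome 2, 75675513 to 75704641, minus strand, GRCm38), was at 32.3, 47.2 and 27.4 FPKM in KO libraries and at 30.5, 25.0 and 21.6 FPKM in WT libraries. KO replicate 2 stood above the rest, and KO replicate 3 lay below WT replicate 1, so the groups overlapped. The log2 fold change was 0.43 ± 0.204 (SE; limma, adjusted p = 0.230), with a 95% interval from -0.04 to 0.91. Without KO replicate 2 it was 0.22.

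Keap1, the inhibitor of NRF2 (chromosome 9, 21229730 to 21239361, minus strand), was at 17.2, 17.1 and 17.2 FPKM in KO libraries and at 15.8, 13.2 and 13.7 FPKM in WT libraries. The 3 KO values were almost the same and all lay above WT. The difference was small, 0.25 ± 0.0893 on the log2 scale (SE; 95% interval from 0.05 to 0.46), and missed the threshold (limma, adjusted p = 0.130). The ratio of Keap1 to Nfe2l2 FPKM was 0.531, 0.361 and 0.625 in KO libraries and 0.517, 0.529 and 0.635 in WT libraries. It overlapped between the groups (exact two-sided permutation p = 0.7).

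Nqo1 encodes NAD(P)H quinone dehydrogenase 1, a classical NRF2 target that reduces quinones (chromosome 8, 107388225 to 107403206, minus strand). It was the lowest of the 10 genes, at 8.80, 7.22 and 4.51 FPKM in KO libraries and 2.98, 2.03 and 2.44 FPKM in WT libraries. The groups were apart, and KO replicate 3 was nearest to WT. Nqo1 averaged 6.84 ± 2.17 FPKM in KO libraries and 2.48 ± 0.475 FPKM in WT libraries (SD, n = 3 each), a ratio of 2.75. The log2 fold change was 1.14 ± 0.211 (SE; limma, adjusted p = 0.0236; exact permutation p = 0.1), the largest of the 10 genes and above 98.9% of all tested genes. Each value rested on 88 to 393 reads. The exact Poisson 95% interval of KO replicate 3, 3.91 to 5.17 FPKM, did not meet that of WT replicate 1, 2.53 to 3.49 FPKM; these intervals cover counting error only. The call was lost without KO replicate 2 (adjusted p = 0.0997), WT replicate 2 (0.0954) or WT replicate 3 (0.0600).

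Srxn1 encodes sulfiredoxin, which reactivates over-oxidised peroxiredoxins (chromosome 2, 152105516 to 152111376, plus strand), and its promoter held the pair of TGAGTCA letters shown above. It was at 22.6, 33.4 and 28.4 FPKM in KO libraries and at 16.4, 13.0 and 15.6 FPKM in WT libraries. Every KO value lay above every WT value. The means were 28.1 ± 5.43 FPKM in KO libraries and 15.0 ± 1.77 FPKM in WT libraries (SD, n = 3 each), a ratio of 1.87. On the log2 scale the difference was 0.85 ± 0.151 (SE; adjusted p = 0.0215 by limma). The call was lost without KO replicate 2 (adjusted p = 0.0704), KO replicate 3 (0.0586) or WT replicate 2 (0.0833).

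Txnrd1, the cytosolic thioredoxin reductase (chromosome 10, 82833951 to 82897712, plus strand), was at 55.0, 58.2 and 55.7 FPKM in KO libraries and 50.4, 52.0 and 50.3 FPKM in WT libraries. The groups did not overlap, but the difference was 0.14 ± 0.0749 on the log2 scale (SE; 95% interval from -0.03 to 0.31; limma, adjusted p = 0.282).

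Gclc and Gclm encode the catalytic and the modifier subunit of glutamate-cysteine ligase, the rate-limiting enzyme of glutathione synthesis. Gclc (chromosome 9, 77754535 to 77794485, plus strand) was at 141, 189 and 143 FPKM in KO libraries and at 96.0, 83.6 and 111 FPKM in WT libraries. The groups did not overlap, and KO replicate 2 was again the highest. Gclc averaged 158 ± 26.9 FPKM in KO libraries and 96.9 ± 13.8 FPKM in WT libraries (SD, n = 3 each), or 0.69 ± 0.149 higher on the log2 scale (SE; adjusted p = 0.0372 by limma). It was the least stable of the 3 calls, and its adjusted p was 0.0515, 0.108 and 0.0669 without KO replicate 1, 2 or 3 and 0.0998 and 0.121 without WT replicate 1 or 2.

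Gclm (chromosome 3, 122245557 to 122270732, plus strand) was at 84.7, 76.7 and 66.4 FPKM in KO libraries and at 69.4, 73.5 and 59.5 FPKM in WT libraries. These overlapped, with a log2 difference of 0.17 ± 0.121 (SE; 95% interval from -0.12 to 0.45; limma, adjusted p = 0.431). The ratio of Gclm to Gclc FPKM was 0.601, 0.407 and 0.464 in KO libraries and 0.724, 0.880 and 0.536 in WT libraries. KO replicate 1 lay above WT replicate 3, so the ratios overlapped, and the log2 difference of -0.53 had an exact two-sided permutation p of 0.2. A pseudogene, Gm6061, lies within Gclm on the same strand and was listed at 4.70 FPKM in KO libraries and 4.08 FPKM in WT libraries on average; how the authors assigned reads that both share is not given in the sources used here.

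Hmox1, the inducible haem oxygenase (chromosome 8, 75093621 to 75100589, plus strand), was not called. It was at 20.7, 28.0 and 18.8 FPKM in KO libraries and at 23.0, 26.4 and 18.2 FPKM in WT libraries, a log2 difference of -0.01 ± 0.177 (SE; 95% interval from -0.42 to 0.40; limma, adjusted p = 0.985). The sign of so small a value turned with the setting, to 0.05 on the TPM scale for example. In liver, macrophages also express Hmox1, and values for their markers follow below.

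Osgin1 encodes an oxidative-stress-induced growth inhibitor (chromosome 8, 119434124 to 119446256, plus strand). It was at 150, 81.7 and 53.1 FPKM in KO libraries and at 83.2, 71.9 and 83.8 FPKM in WT libraries. KO libraries held both the highest and the lowest value, with an SD of 49.9 FPKM in KO libraries and 6.72 FPKM in WT libraries (n = 3 each). The log2 fold change was 0.13 ± 0.322 (SE; limma, adjusted p = 0.842), and it was -0.27 without KO replicate 1.

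Cat, the peroxisomal catalase (chromosome 2, 103453849 to 103485160, minus strand), was by far the most abundant of the 10 genes and above 99.6% of all tested genes in level. It was at 1252, 1179 and 1265 FPKM in KO libraries and at 1184, 1167 and 1248 FPKM in WT libraries. The groups overlapped, and the 95% interval of the log2 fold change of 0.04 ran from -0.19 to 0.27 (limma, adjusted p = 0.844). The value was -0.07 after median-of-ratios scaling.

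None of the 10 genes lies on chromosome 7, which carries Arrb1. The 10 did not share one order of libraries: KO replicate 2 held the highest KO value for 5 of them, KO replicate 1 for 4 and KO replicate 3 for 1.

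**Figure D2:**
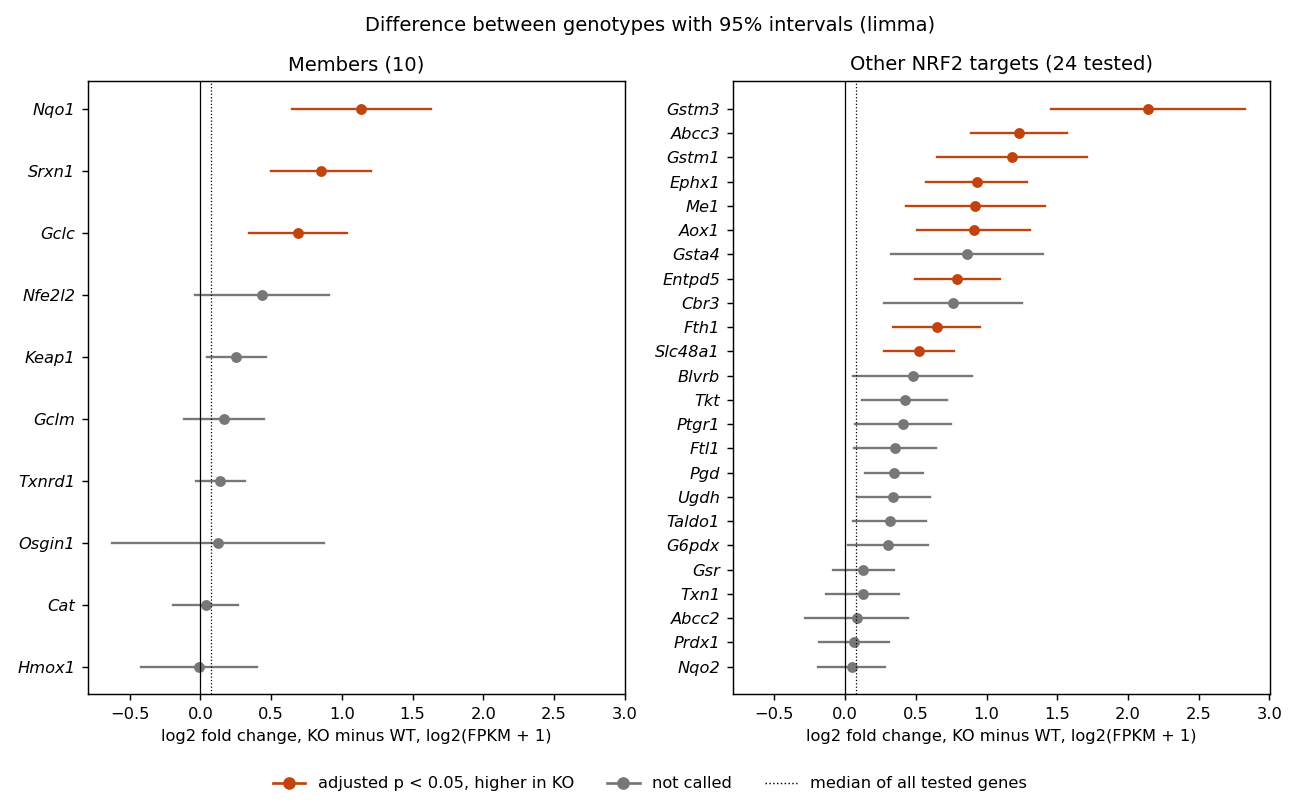
Log2 fold change, KO minus WT, on the log2(FPKM + 1) scale with its 95% interval (limma) for the 10 genes and for the 24 tested genes of a list of other NRF2 targets; the dotted line is the median of all tested genes. Nqo1, Srxn1 and Gclc were called among the 10 genes, and 9 of the 24 were called among the other targets, all higher in KO.

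A list of 26 other NRF2 targets was set beside the 10 genes. Of the 24 that were tested, 9 (37.5%) were higher in KO libraries, against 5.3% of all tested genes, and none was lower. All 24 had a fold change above 0, as had 6766 of the 10633 tested genes. The median was 0.45, against 0.07 for all tested genes. This list too was chosen with earlier results of these data known, so these counts are not independent support. Slc7a11 and Abcc4 were below the filter, and Cbr3 passed it through its KO values, with 1.61 FPKM in KO libraries and 0.497 FPKM in WT libraries on average. Abcc3, a transporter that exports conjugates from the basal side of hepatocytes, was at 101, 113 and 92.6 FPKM in KO libraries and at 49.4, 34.4 and 46.2 FPKM in WT libraries (log2 fold change 1.23; limma, adjusted p = 0.00575). It was called under all 17 alternatives. Gstm3, a glutathione S-transferase, was at 76.2, 153 and 68.8 FPKM in KO libraries and at 16.5, 19.9 and 25.4 FPKM in WT libraries (log2 fold change 2.14; limma, adjusted p = 0.0101). Its family has close copies, so the level of any one copy is uncertain.

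Ephx1, the microsomal epoxide hydrolase, averaged 272 ± 39.1 FPKM in KO libraries and 142 ± 24.2 FPKM in WT libraries, and Entpd5, a nucleoside diphosphatase of the endoplasmic reticulum, 106 ± 10.3 FPKM in KO libraries and 61.1 ± 9.60 FPKM in WT libraries (SD, n = 3 each). The remaining higher genes were Gstm1, Aox1, Me1, Fth1 and Slc48a1, and the first 3 are named here after their values were seen. The count of 9 was 2 without KO replicate 2, 2 without WT replicate 2, 4 without WT replicate 1 and 5 without KO replicate 1. Entpd5 lost its call without KO replicate 2 (adjusted p = 0.0685) or WT replicate 2 (0.0655), and Ephx1 without those (0.0672 and 0.0584) or WT replicate 1 (0.0503).

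KO replicate 2 held the highest KO value for 22 of these 24 genes, against 50.3% of all tested genes. Of the 24, Cbr3 passed the filter only through its KO values, so its place in that count supports nothing. KO replicate 2 was also the highest KO library for all 9 tested markers of lipid-associated and monocyte-derived macrophages. Of these 9, Gpnmb, Mmp12, Ccr2 and Cx3cr1 passed the filter only through their KO values, so that count supports nothing. The same library was highest for all 4 tested erythroid and 4 of 5 cholangiocyte markers, but for 1 of 12 hepatocyte markers. It was so for 7 of 12 Kupffer cell, 6 of 10 stellate and 5 of 10 endothelial markers, against 50.3% of all tested genes. The part of these cells in the pattern was not tested.

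**Figure D3:**
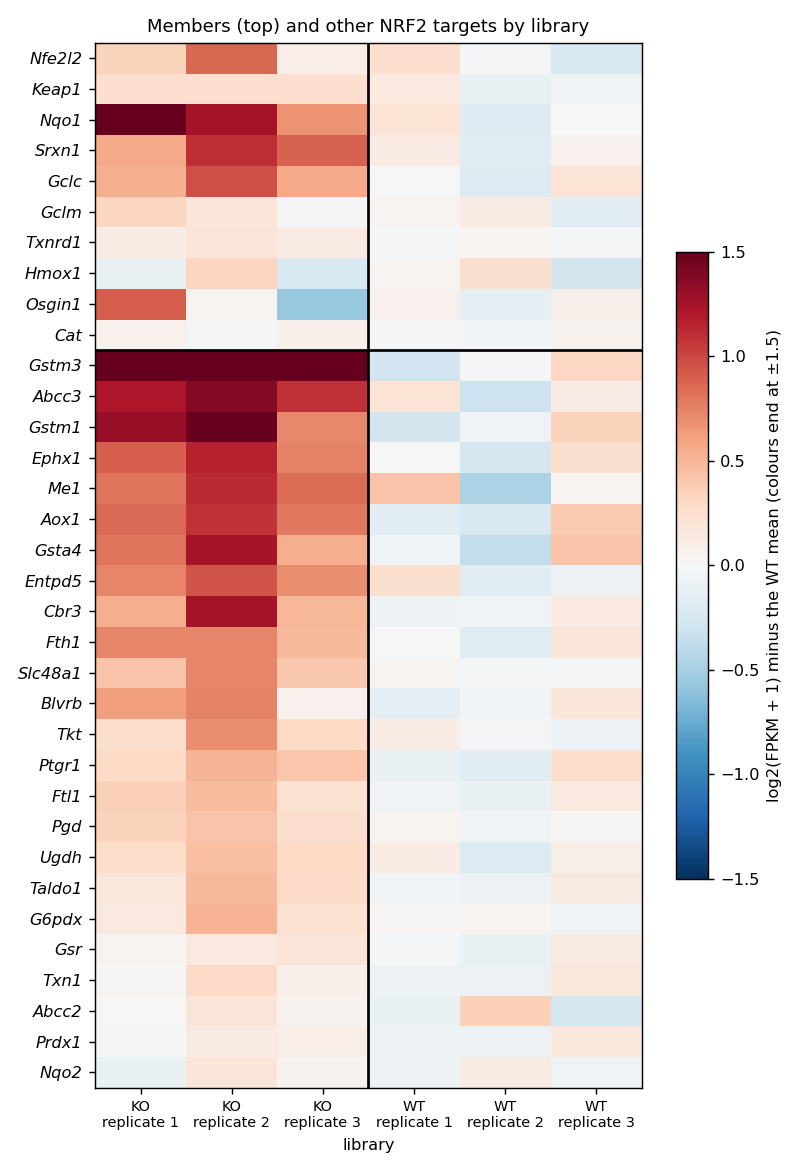
Log2(FPKM + 1) of each library minus the WT mean for the 10 genes (above the line) and the 24 other NRF2 targets (below it), with KO libraries on the left and WT libraries on the right. KO replicate 2 was the highest KO library for 5 of the 10 genes and for 22 of the 24 other targets.

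Proteins that act with or on NRF2 were tested as 12 genes, among them the small MAF partners, the repressor Bach1 and the ligase subunits Cul3 and Rbx1. Limma called 0 of the 12, and voom 0; at an unadjusted p under 0.05, 3 were higher and none lower, where 19.1% of all tested genes were higher. Higher calls numbered 2 on the TPM scale, 2 with array weights and 1 without WT replicate 3. Those with the smallest p were Sqstm1, whose product p62 binds KEAP1, at 311 ± 20.0 FPKM in KO libraries and 232 ± 34.1 FPKM in WT libraries (SD, n = 3 each; limma, adjusted p = 0.0799), and Nfe2l1, a relative of NRF2, at 53.5 ± 2.45 FPKM in KO libraries and 43.1 ± 3.45 FPKM in WT libraries (limma, adjusted p = 0.0849).

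Of 17 tested genes of glutathione synthesis and use, 2 (11.8%) were higher, against 5.3% of all tested genes, and none was lower. At an unadjusted p under 0.05, limma had 6 higher and 2 lower, against 19.1% and 6.19% of all tested genes. After median-of-ratios scaling 1 was called higher and 2 were called lower. Gss, glutathione synthetase, acts just after glutamate-cysteine ligase and was at 46.1, 54.5 and 54.0 FPKM in KO libraries and at 35.5, 29.4 and 39.5 FPKM in WT libraries (log2 fold change 0.56; limma, adjusted p = 0.0418). Glrx, glutaredoxin, was at 21.2, 21.8 and 20.4 FPKM in KO libraries and at 15.1, 13.8 and 14.4 FPKM in WT libraries (log2 fold change 0.52; limma, adjusted p = 0.0135). Glrx lost its call without KO replicate 2 (adjusted p = 0.0604) or WT replicate 2 (0.0533). Gss lost it without KO replicate 2 (0.143) or 3 (0.116) or WT replicate 1 (0.101) or 2 (0.111).

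Of 17 thioredoxin and peroxiredoxin genes, 1 was higher and 1 lower; the share higher, 5.88%, was near the 5.3% of all tested genes. Msra, which repairs oxidised methionine, averaged 22.0 ± 0.521 FPKM in KO libraries and 15.5 ± 1.75 FPKM in WT libraries, and Prdx4, the peroxiredoxin of the endoplasmic reticulum, averaged 44.7 ± 5.85 FPKM in KO libraries and 66.5 ± 8.17 FPKM in WT libraries (SD, n = 3 each; limma, adjusted p = 0.0312 and 0.0432). Prdx4 lost its call with any 1 library left out (adjusted p from 0.0793 to 0.104), and Msra with any but WT replicate 3 (0.0544 to 0.111). Prdx1, another substrate of sulfiredoxin, was at 506 ± 28.8 FPKM in KO libraries and 485 ± 48.3 FPKM in WT libraries (SD, n = 3 each), with overlapping groups; it is named here as a partner of Srxn1.

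Among 11 superoxide dismutase and oxidant-producing genes, 1 (9.09%) was called higher, against 5.3% of all tested genes, and none was lower. This was Sod3, the secreted superoxide dismutase. It was at 36.4, 39.4 and 35.8 FPKM in KO libraries and at 24.9, 24.0 and 22.2 FPKM in WT libraries (log2 fold change 0.63; limma, adjusted p = 0.00921), and was called under all 17 alternatives. Without KO replicate 1 the list had 3 higher genes.

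Of 9 genes of haem breakdown and iron storage, 2 (22.2%) were higher, against 5.3% of all tested genes, and none was lower. Both also belong to the list of other NRF2 targets. Without WT replicate 3, 1 was higher and 1 lower. Fth1, the ferritin heavy chain, averaged 1264 ± 123 FPKM in KO libraries and 808 ± 101 FPKM in WT libraries, and Slc48a1, a haem transporter, 26.2 ± 3.62 FPKM in KO libraries and 17.9 ± 0.451 FPKM in WT libraries (SD, n = 3 each; limma, adjusted p = 0.0320 for both). Fth1 lost its call without KO replicate 1 (adjusted p = 0.0755) or 2 (0.118) or WT replicate 1 (0.0930) or 2 (0.105). Slc48a1 lost it without KO replicate 2 (0.0823) or 3 (0.0529) or any WT replicate (0.0709 to 0.105).

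Of 19 genes of peroxisome assembly and membrane, set beside Cat, 1 was higher and none lower. That share, 5.26%, was about the 5.3% of all tested genes. Of the 19, 18 had a fold change above 0, as had 6766 of the 10633 tested genes. Their median log2 fold change was 0.20, against 0.07 for all tested genes. Pex11a, which takes part in peroxisome division, was at 53.8, 72.6 and 52.3 FPKM in KO libraries and at 32.4, 21.1 and 27.2 FPKM in WT libraries (log2 fold change 1.12; limma, adjusted p = 0.0164). The call was lost without KO replicate 2 (adjusted p = 0.0566) or WT replicate 2 (0.0508).

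Markers of other liver cells were present in these libraries. In bulk samples, fewer cells of a type and less RNA per cell cannot be told apart. Hepatocyte markers were abundant, led by Alb with Asgr1 lowest, and summed to 51300 to 59800 FPKM in KO libraries and 55300 to 66100 FPKM in WT libraries, with 1 of 12 higher and 2 lower (1 lower without any library but KO replicate 3). Markers of lipid-associated and monocyte-derived macrophages summed to 153, 353 and 184 FPKM in KO libraries and to 137, 96.1 and 131 FPKM in WT libraries. Of 9 tested, 3 (33.3%) were higher, against 5.3% of all tested genes. Of the 9, Gpnmb, Mmp12, Ccr2 and Cx3cr1 passed the filter only through their KO values, and the first 2 are among the 3 called, so that count supports nothing; Gpnmb was at 5.16 FPKM in KO libraries and 0.154 FPKM in WT libraries on average, and Mmp12 at 3.18 FPKM in KO libraries and 0.140 FPKM in WT libraries. The other called marker was Lgals3 (limma, adjusted p = 0.0275). Lgals3 was at 10.1, 23.1 and 16.2 FPKM in KO libraries and at 6.26, 4.33 and 6.01 FPKM in WT libraries. The count of 3 was 0 without WT replicate 2, 1 without WT replicate 1 and 2 without KO replicate 2 or 3. Their highest marker was Lyz2 and their lowest was Itgax. For Kupffer cells and macrophages in general, sums of 353 to 440 FPKM in KO libraries and 333 to 366 FPKM in WT libraries overlapped. Limma called 0 of 12 higher and 1 lower (Vsig4), against 5.3% and 1.6% of all tested genes. The lower count was 0 without any 1 library but WT replicate 3. At an unadjusted p under 0.05, 2 were higher and 2 lower, against 19.1% and 6.19% of all tested genes. Voom called 0 higher and 1 lower, against 7.42% and 1.89%. Cd5l was the highest and Timd4 the lowest marker.

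The sums of endothelial markers overlapped as well, at 165 to 190 FPKM in KO libraries and 144 to 170 FPKM in WT libraries. Of 10, 2 (20.0%) were higher, against 5.3% of all tested genes. That count was 1 without KO replicate 2 or 3 or WT replicate 1 or 2. Fcgr2b was highest and Lyve1 lowest. Stellate cell markers summed to 127 to 178 FPKM in KO libraries and 110 to 135 FPKM in WT libraries, with 1 of 10 higher (0 without KO replicate 1 or any WT replicate), from Dcn at the top to Ngfr. Cholangiocyte markers, led by Spp1, which macrophages also express, summed to 42.4 to 105 FPKM in KO libraries and 36.4 to 68.8 FPKM in WT libraries, with Cftr lowest. Limma called 0 of 5 tested cholangiocyte markers, voom 0, and 0 passed at an unadjusted p under 0.05. Erythroid markers, led by Alas2, summed to 59.0 to 121 FPKM in KO libraries and 79.5 to 127 FPKM in WT libraries. Limma called 0 of 4 tested and voom 0. At an unadjusted p under 0.05, 2 were lower, against 6.19% of all tested genes. Without KO replicate 2 limma called 2 lower, where it called 63 genes lower over the transcriptome. No marker was listed at 0 in all 6 libraries. The part of these cells in the values of the 10 genes was not tested.

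**Figure D4:**
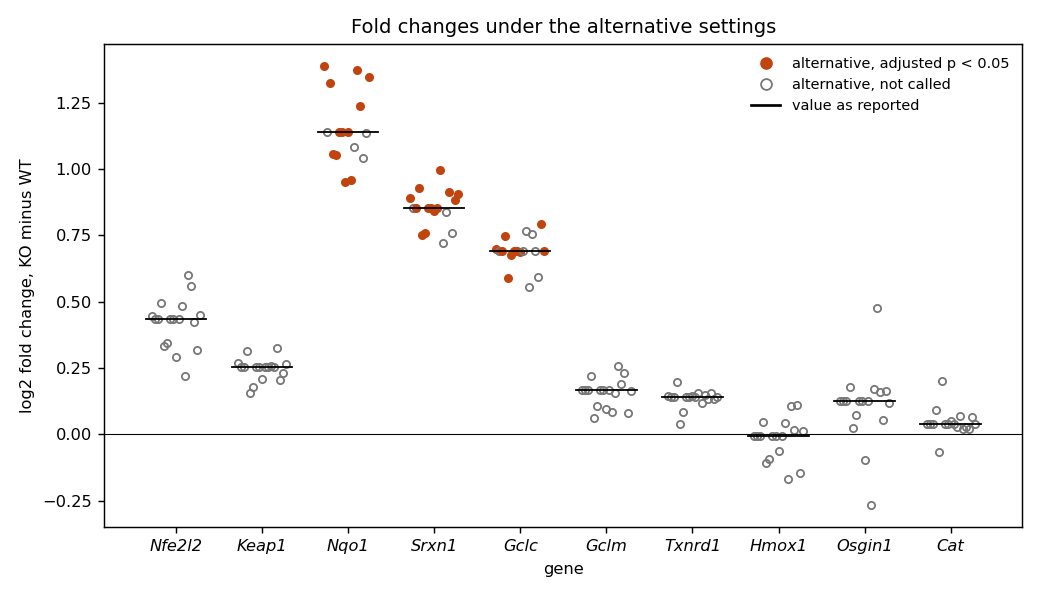
Log2 fold change, KO minus WT, of each of the 10 genes under the alternative settings (17 settings, 16 for Nqo1), with filled points where the adjusted p was under 0.05 and a line at the value as reported. Nqo1, Srxn1 and Gclc stayed above 0 under all of them and were called under 12, 13 and 10, and the other 7 genes were called under none.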

How the data were processed

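Liver RNA was sequenced in 3 HFD-ARRB1-KO and 3 HFD-WT libraries, grouped by title. Per the labels' protocols, Trizol was used for extraction and an Illumina TruSeq kit for the libraries. The FPKM values are as deposited by the authors; per the submitters' processing notes, Bowtie 0.12.2, HISAT2 and the builds mm8 and mm10 were used, with no roles given. The sources used here give neither the annotation nor the strand setting nor how shared reads were treated. Overlapping genes (Gm16754 opposite Keap1, Gm17494 opposite Gclm, Gm38560 opposite Txnrd1) therefore could not be told apart by strand. Positions are from GENCODE vM21 (GRCm38) and promoters from RefSeq (GRCm38.p6), matched by symbol.

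The FPKM steps gave whole reads for 17549 of 17549 genes detected in 4 or more libraries (tolerance 0.001 reads plus a share of 5e-08, no more than 0.05). With relative depths shifted between libraries, 0% of 500 genes came out whole, against 100% with the right depths. These 500 were detected in all libraries, lay under 50 FPKM and were searched to a lower count. That check therefore does not cover abundant genes. Totals of these reads were 13354411 to 33873322 per library. On them, voom called 789 genes higher and 201 lower.

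Tests used limma 3.58.1 in R 4.3.3 on log2(FPKM + 1), with a single genotype term, a trended two-sided eBayes and Benjamini-Hochberg adjustment, over genes whose mean reached 1 FPKM. The fit was tested on simulated data. Ratios were tested by exact permutation with scipy 1.17.1 in Python 3.11.15. Alternatives tried were no filter, one at 5 FPKM, a pseudocount of 0.1, TPM, median-of-ratios and quantile scaling, eBayes without trend or robust, array weights, the replicate block, each library left out, and voom on the recovered reads. The 10 genes and the lists were chosen with earlier results of these data known. Named from each list are up to 4 called genes, or the 2 with the smallest p, plus the highest and lowest markers; a few of these are not reported here. The glutathione list also held Ggcx, a vitamin K-dependent carboxylase listed in error, which was not called. Of the listed genes, 1 (Ahsp) had no row under that symbol.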

Additional observations from a re-analysis of the deposited data

How the results depend on the processing

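Of the 10 genes, 3 were called higher and 0 lower. With no filter on low values the higher count was 0, and with 1 library left out it ran from 0 to 2. The other NRF2 targets, 9 higher as reported, numbered 1 with no filter and 2 to 8 with 1 library left out. No gene of either group was called lower under any alternative. Over all genes, 564 higher and 170 lower calls became 88 and 58 with no filter (22476 genes tested), 280 and 122 with the replicate block, 346 and 232 with median-of-ratios scaling, 371 and 204 with quantile scaling and 990 and 172 on the TPM scale, and ran from 94 to 422 and from 54 to 119 with 1 library left out. With no filter, of the genes called and chosen by the naming rule, Abcc3, Glrx and Sod3 kept their calls. Nqo1 had no value with the filter at 5 FPKM, which it did not pass.

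The signs of small differences turned. The Hmox1 log2 fold change, -0.01, was 0.0463 on the TPM scale and 0.0109 with voom, and ran from -0.17 to 0.11 with 1 library left out. Osgin1 was -0.10 with array weights and ran from -0.27 to 0.47 with 1 library left out. Cat was -0.067 after median-of-ratios scaling. The log2 difference in the Keap1 to Nfe2l2 ratio, -0.18, ran from -0.35 to 0.0463 with 1 library left out, and that of Gclm to Gclc from -0.72 to -0.36. The causes were not tested.

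Same-numbered libraries were not treated as pairs in the main test. Their deviations from the group means correlated at 0.17, -0.063 and 0.097 for replicates 1, 2 and 3. Those of differently numbered KO and WT libraries correlated at -0.243 to 0.125. With the replicate block, 2 of the 10 genes were called higher (Gclc was not, adjusted p = 0.0752) and 5 of the other targets, and the ratio tests gave exact sign-flip p = 0.25 for Gclm to Gclc, the smallest 3 pairs allow, and 0.75 for Keap1 to Nfe2l2. The block also ended the calls of Gss, Msra, Prdx4, Fth1 and Slc48a1, and median-of-ratios scaling those of Gss, Msra and Fth1; eBayes without trend ended those of Gss and Prdx4. Depth limits Nqo1 most, which had 88 reads in its lowest library.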
